A study of Drosophila melanogaster with 4 samples.

Results

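The RNA of 10 cell adhesion genes was measured in sorted intestinal stem cells of Drosophila melanogaster, which divide to replace the epithelium of the fly gut. The genes were chosen by name for their known roles, with earlier results of these data known. They comprise 6 genes of integrin adhesion (mys, mew, scb, rhea, Ilk and parvin) and 4 genes of the adherens junction (shg, arm, alpha-Cat and p120ctn), out of 15495 rows in the deposited table. Parvin is listed there as CG32528 and was found by its identifier, FBgn0052528. All 10 reached the filter, a mean of 1 FPKM or more, and so belonged to the 8313 genes tested. FPKM counts fragments relative to transcript length and to the size of the library.

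Intestinal stem cells sit on the basement membrane between the epithelium and the visceral muscle. Integrins, receptors made of an alpha and a beta chain, hold cells to the laminins and other proteins of that membrane, and cytoplasmic linkers tie them to actin. E-cadherin holds neighbouring epithelial cells together, and the catenins link it to actin and regulate it. Integrins and E-cadherin are both known to keep fly intestinal stem cells in their place.

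Flies kept at 29 °C expressed RNA interference for 7 days, either against Piwi, an Argonaute protein of the piRNA pathway, or against mCherry, a foreign fluorescent protein that serves as the control. Each library came from its own FACS sort of 100 pooled guts, with 2 libraries per group, so the tests measure the spread between pools. The control labels also name a yw source. The driver, the age and the relation of the backgrounds are not stated.

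The estimated depth was 1630000 to 2310000 fragments per library. The target, piwi, was near the detection limit, at 0.495 FPKM in mCherry RNAi replicate 1, 1.94 in mCherry RNAi replicate 2, 0.208 in Piwi RNAi replicate 1 and 0.442 in Piwi RNAi replicate 2. Pairs of values below are given in this order, replicate 1 first. For piwi these levels were about 3 and 12 fragments in mCherry RNAi and 1 and 3 in Piwi RNAi. Such low numbers do not show how far piwi was reduced. The progenitor factor esg had 240 to 302 FPKM in mCherry RNAi and 378 to 416 FPKM in Piwi RNAi, and the stem cell ligand Dl had 3.41 to 4.49 FPKM across the 4 libraries. The 9 stem cell and enteroblast markers summed to 673 and 823 FPKM against 1030 and 996 FPKM. Of the 9, 7 were higher in both Piwi RNAi libraries, as were 51.5% of all tested genes. Their median log2 difference was 0.559, where that of all tested genes was 0.365. After scaling the libraries by the median of ratios these medians were 0.152 and −0.008. The enteroblast factor klu had 28.5 and 34.4 against 82.4 and 86.1 FPKM, a log2 difference of 1.40 (limma, adjusted p = 0.0593). For zfh2 it was 1.26, for N 0.78, for Egfr 0.78, for esg 0.56, for Sox21a 0.50 and for cnc 0.48. The groups overlapped for Dl, at 0.09, and for Sox100B, at −0.11 with 232 and 272 against 228 and 236 FPKM. mCherry RNAi replicate 1 stood apart. Its 15 enterocyte markers summed to 19900 FPKM, against 1550 in mCherry RNAi replicate 2 and 967 to 1920 in Piwi RNAi, and its 16 visceral muscle markers summed to 128 FPKM against 26.2 to 27.9 in the other libraries. The muscle genes Mlc1, wupA and Mf were listed at 0 in the other libraries. Other markers of that list did not follow this pattern. Mef2 was level at 12.0 to 13.2 FPKM, and how had 2.93 and 6.43 against 9.26 and 9.81 FPKM. up had 21.3 and 6.24 against 0.473 and 0.653 FPKM. Among the enterocyte markers, Myo31DF and Lip3 were close between the controls. Myo31DF had 135 and 127 against 90.3 and 77.9 FPKM, and Lip3 had 4.46 and 4.02 against 0.940 and 0.331 FPKM. The 12 enteroendocrine markers summed to 2840 and 5600 FPKM in mCherry RNAi and to 271 and 484 FPKM in Piwi RNAi. Most of these sums came from npf and CG13565. Of the 9 tested, 7 were lower in both Piwi RNAi libraries, as were 13.0% of all tested genes. The groups overlapped for CCHa1, at 1.31 and 5.16 against 3.32 and 2.34 FPKM. They also overlapped for CCHa2, at 14.1 and 3.24 against 5.36 and 1.26 FPKM. The part of these cell types in the levels of the adhesion genes was not tested. In sorted pools, fewer cells of a type and less RNA per cell cannot be told apart.

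The 3 integrin subunits were among the most abundant of the 10 genes, and none of them passed the test between Piwi RNAi and mCherry RNAi. mys encodes beta-PS, the beta chain of the PS integrins. It had 192 and 249 FPKM in the controls, and 273 and 204 FPKM with Piwi RNAi. The groups overlapped, with Piwi RNAi replicate 2 below mCherry RNAi replicate 2. The group means were 221 ± 40.4 and 239 ± 48.7 FPKM (SD, n = 2 per group), and the log2 difference on the log2(FPKM + 1) scale was 0.11 ± 0.22 (SE). Its 95% interval ran from −0.46 to 0.68, which is 0.726-fold to 1.60-fold (limma, adjusted p = 0.743).

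mew encodes alpha-PS1, a laminin-binding alpha chain that pairs with beta-PS. It had 100.5 and 148.5 FPKM in the controls, and 167.9 and 149.0 FPKM with Piwi RNAi. The groups did not overlap, but mCherry RNAi replicate 2 and Piwi RNAi replicate 2 were nearly level. The log2 difference was 0.37 ± 0.24 (limma, adjusted p = 0.334). It was 0.09 without mCherry RNAi replicate 1 and 0.65 without mCherry RNAi replicate 2. scb encodes alpha-PS3, another partner of beta-PS. It had 134 and 154 FPKM in the controls, and 213 and 164 FPKM with Piwi RNAi, again without overlap but with Piwi RNAi replicate 2 close to the controls. Its log2 difference was 0.38 ± 0.20, with an interval of −0.13 to 0.88 (limma, adjusted p = 0.264).

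The alpha chains were expressed in similar proportions in the 4 libraries. Among the alpha genes, scb made up 53.5% and 48.9% of the summed FPKM in mCherry RNAi and 54.2% and 50.8% in Piwi RNAi. mew made up 40.3% and 47.0% against 42.7% and 46.3%. Together these genes supplied almost all alpha chain RNA. The alpha-PS2 gene if, whose product is the main partner of beta-PS in muscle, had 0.264 FPKM in mCherry RNAi replicate 1 and 0.111 FPKM in Piwi RNAi replicate 1 and was listed at 0 in the other libraries. ItgaPS4 had 14.5 and 12.6 FPKM in the controls, and 10.3 and 8.87 FPKM with Piwi RNAi, and ItgaPS5 stayed at 0.331 to 1.49 FPKM. On the beta side, mys made up 85.3% and 85.6% in mCherry RNAi and 83.7% and 78.2% in Piwi RNAi, and Itgbn, the beta-nu chain known from gut endoderm, made up the rest. These shares are a description of FPKM, which is per length, and carry no test.

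**Figure D1:**
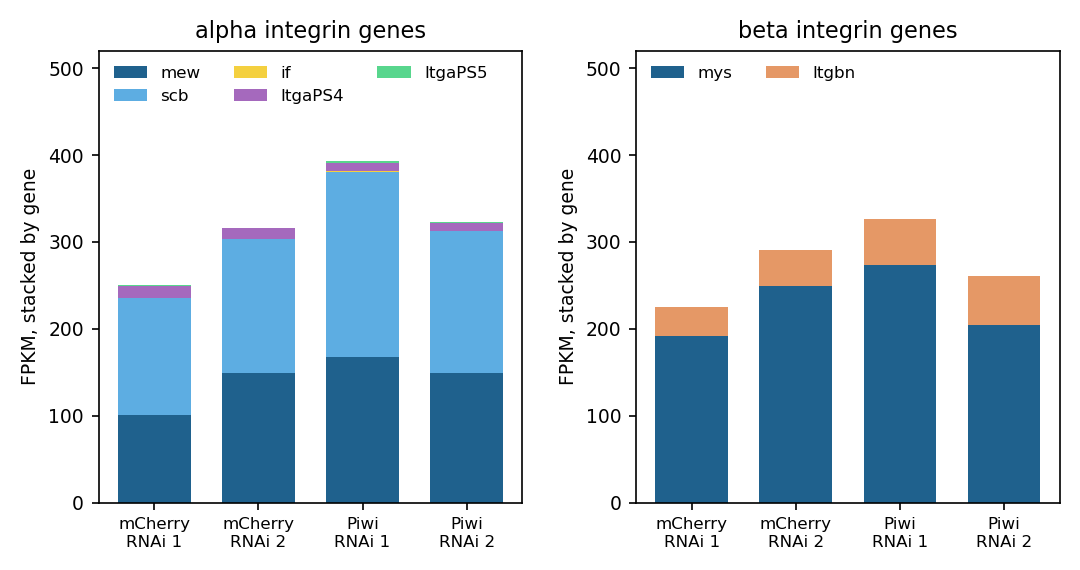
FPKM of the alpha integrin genes (left) and beta integrin genes (right), stacked by gene, in each of the 4 libraries. mew and scb fill nearly all of each alpha bar, if is too low to be seen, and mys makes up 78.2% to 85.6% of the beta bars.

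The linkers stood at roughly a common level, below the subunits, and none passed the test. rhea encodes talin, which binds the integrin beta tail and actin. It had 56.4 and 72.3 FPKM in the controls, and 81.2 and 68.6 FPKM with Piwi RNAi. The groups overlapped, and the log2 difference was 0.22 ± 0.22 (limma, adjusted p = 0.498). Ilk encodes integrin-linked kinase, a scaffold at integrin adhesions. It had 59.3 and 71.6 FPKM against 81.8 and 77.2 FPKM, without overlap, and mCherry RNAi replicate 2 lay closer to the Piwi RNAi libraries than to the other control. Its log2 difference was 0.28 ± 0.19 (limma, adjusted p = 0.350).

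Parvin, an actin-binding partner of Ilk, had the widest gap of the integrin genes. It had 43.2 and 55.9 FPKM in the controls, and 80.0 and 62.8 FPKM with Piwi RNAi, without overlap. The log2 difference was 0.52 ± 0.24 (interval −0.09 to 1.13; limma, adjusted p = 0.226). In the reference annotation, 145 of the 1840 exonic bases of parvin are shared with Alr on the same strand, and 269 lie opposite an antisense RNA gene. Alr itself had 15.8 and 16.02 FPKM against 48.1 and 34.8 FPKM, and the part of shared reads in the level of parvin was not tested.

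The adherens junction genes covered a wider range of levels, and 3 of the 4 lay apart between the groups, as did 4 of the 6 integrin genes and 51.5% of all tested genes. shg, the gene of E-cadherin, had 30.5 and 32.8 FPKM in the controls, and 46.3 and 48.9 FPKM with Piwi RNAi. Both knockdown libraries lay above both controls, and replicates were close, with means of 31.7 ± 1.59 and 47.6 ± 1.86 FPKM (SD, n = 2 per group). The log2 difference was 0.57 ± 0.19, with an interval of 0.08 to 1.07. It did not pass the test over all genes (limma, unadjusted p = 0.0306, adjusted p = 0.166). These values correspond to about 394 and 432 fragments in mCherry RNAi and 473 and 708 in Piwi RNAi. The exact Poisson 95% intervals, which cover counting error only, ran from 27.6 to 36.1 FPKM over the controls and from 42.2 to 52.6 FPKM over the knockdown libraries.

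arm encodes beta-catenin, which binds the tail of E-cadherin and also transmits Wnt signals. It had 120 and 143 FPKM in the controls, and 186 and 211 FPKM with Piwi RNAi. The groups did not overlap, and the fold of the means was 1.505. On the opposite strand, mRpL16 overlaps 82 of its 3564 exonic bases, and the strand setting of the counting is not stated. The log2 difference was 0.59 ± 0.17 (interval 0.15 to 1.03; limma, unadjusted p = 0.0192, adjusted p = 0.152). alpha-Cat encodes alpha-catenin, the actin-binding link of the junction. It had 9.12 and 16.9 FPKM in the controls, and 23.7 and 24.7 FPKM with Piwi RNAi. The control replicates differed by 0.83 on the log2 scale, nearly as much as the groups, while the knockdown replicates were almost level. The log2 difference of 0.90 ± 0.34 was the largest of the 10 genes (interval 0.03 to 1.78; limma, unadjusted p = 0.0447, adjusted p = 0.181). Leaving out mCherry RNAi replicate 1 gave 0.49, and leaving out mCherry RNAi replicate 2 gave 1.32. In the reference annotation, 408 of the 3487 exonic bases of alpha-Cat are shared on the same strand with an INE-1 transposon insertion. The part of reads from such elements in the level of alpha-Cat was not tested.

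p120ctn, the catenin that binds the membrane-near part of E-cadherin, was the least abundant gene. It had 6.08 and 9.71 FPKM in the controls, and 8.42 and 9.17 FPKM with Piwi RNAi. Both knockdown values lay between the control values, at a log2 difference of 0.17 ± 0.31 (limma, adjusted p = 0.720). The libraries held only about 32 and 52 fragments against 35 and 54. The exact Poisson intervals reached from 4.16 to 12.7 FPKM over the controls and from 5.85 to 11.9 FPKM over the knockdown libraries, and overlapped between the groups. Leaving out mCherry RNAi replicate 1 gave −0.13, and leaving out mCherry RNAi replicate 2 gave 0.47.

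**Figure D2:**
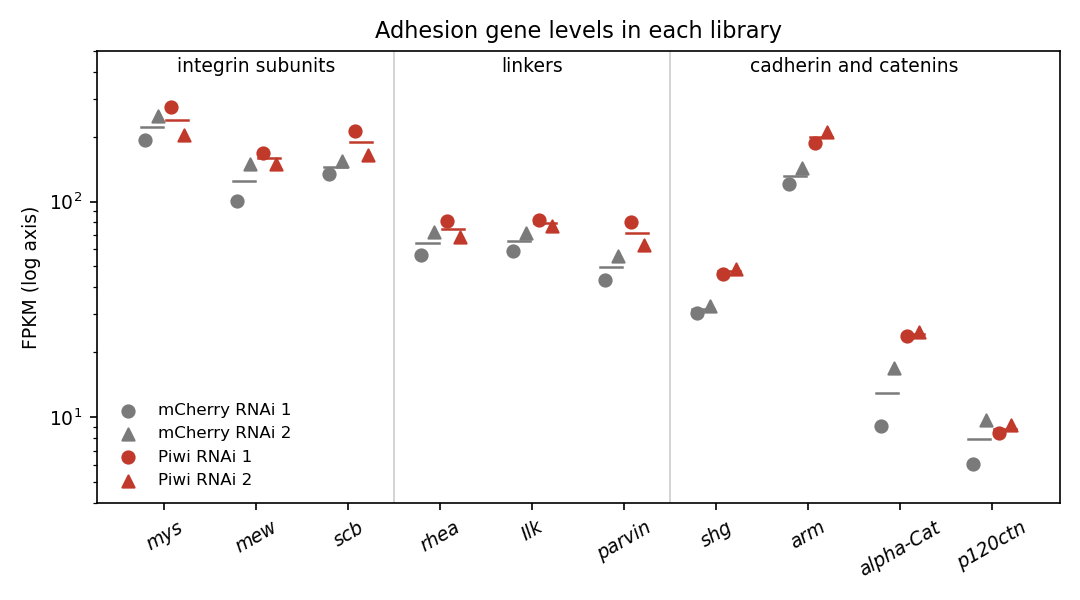
FPKM (log axis) of the 10 adhesion genes in each library, mCherry RNAi in grey and Piwi RNAi in red, circles for replicate 1 and triangles for replicate 2, with short lines at the group means. Every gene is lowest in mCherry RNAi replicate 1. The groups are apart for mew, scb, Ilk, parvin, shg, arm and alpha-Cat and overlap for mys, rhea and p120ctn.

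Ordered by their mean over the 4 libraries, the levels ran from mys at 230 FPKM through scb at 166, arm at 165, mew at 141, Ilk at 72.5, rhea at 69.6, parvin at 60.5, shg at 39.6 and alpha-Cat at 18.6 to p120ctn at 8.34 FPKM. Only the steps from mew to Ilk and from shg to alpha-Cat separated neighbours whose ranges over the libraries did not overlap. mys was nevertheless above scb in 4 of 4 libraries, and parvin above shg in 4 of 4. scb and arm, arm and mew, and Ilk and rhea each changed places in a library, so their order is not set. mys exceeded 95.6% of the tested genes, shg 77.2% and p120ctn 34.2%.

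Across the set, 0 of 10 genes passed the test (limma, adjusted p from 0.152 to 0.743), where 1.18% of all tested genes did (0.613% higher and 0.565% lower in Piwi RNAi). Those were 51 genes higher and 47 lower, and 25 and 10 after quantile normalization, 1 and 7 after scaling by the median of ratios. In simulated data the test called only 3 of 50 genes changed 2-fold, so a gene that did not pass was not shown to be unchanged. At an unadjusted p under 0.05 there were 3 of 10, namely shg, arm and alpha-Cat, against 26.6% of all tested genes. Both Piwi RNAi libraries lay above both mCherry RNAi libraries for 7 of 10 genes, 4 of 6 on the integrin side and 3 of 4 on the cadherin side, against 51.5% of all tested genes. In the opposite order there were 0 of 10, against 13.0%, on the deposited scale. The log2 difference was above 0 for 10 of 10 genes and for 70.0% of all genes. The median log2 difference was 0.37 for the 10 genes, equal to the 0.37 of all tested genes. It was 0.33 for the 6 integrin genes and 0.58 for the 4 junction genes.

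The direction of the smaller differences depended on the scaling between libraries. The median of all tested genes was 0.37 in the deposited FPKM and −0.01 after scaling by the median of ratios. With that scaling the log2 differences were −0.30 for mys, −0.04 for mew, −0.03 for scb, −0.18 for rhea, −0.12 for Ilk and −0.19 for p120ctn. They remained positive for parvin at 0.12, shg at 0.18, arm at 0.18 and alpha-Cat at 0.52. shg, arm and alpha-Cat were the only 3 genes of the set with both Piwi RNAi libraries above both controls after that scaling, where 26.9% of all tested genes were. At an unadjusted p under 0.05 there were then 0 of 10 genes and 1474 of 8313 (limma, smallest adjusted p of the 10 = 0.391). After quantile normalization there were 1 of 10 and 1282 of 8313. The same 3 were higher in both Piwi RNAi libraries after quantile normalization, where 32.7% of all genes were, and after an adjustment for transcript length, where 26.9% were. The count of 3 of 10 is near these shares. Both Piwi RNAi libraries lay below both controls for mys and Ilk after the median of ratios, and for mys and rhea after the length adjustment. After quantile normalization the remaining genes overlapped. The share of all genes lower in both was not counted under these scalings.

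**Figure D3:**
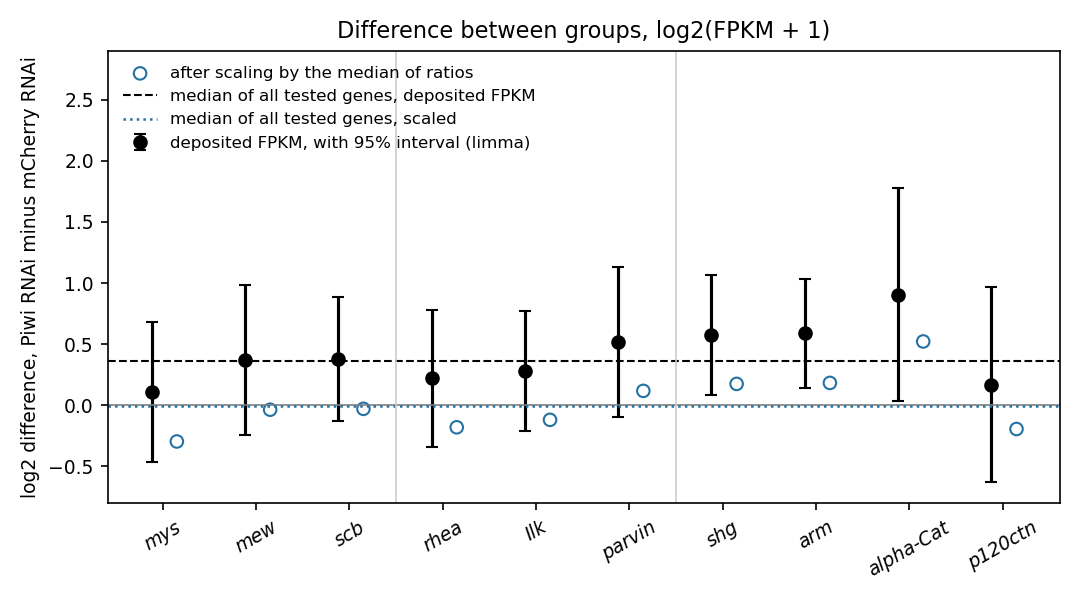
Log2 difference of each adhesion gene in log2(FPKM + 1), Piwi RNAi less control, from the deposited values with limma's 95% intervals (black) and after scaling by the median of ratios (open blue circles); the dashed and dotted lines mark the medians of all tested genes, 0.37 and −0.01. parvin, shg, arm and alpha-Cat lie above the medians on both scales, and mys, rhea, Ilk and p120ctn lie below them on both.

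The libraries differed in which adhesion genes they favoured. All 10 genes were lowest in mCherry RNAi replicate 1, where 52.7% of all tested genes were. After scaling by the median of ratios 4 of 10 were lowest there, against 32.9% of all genes. This is the library with high enterocyte and muscle markers. The 6 integrin genes were all highest in Piwi RNAi replicate 1 and shg, arm and alpha-Cat all in Piwi RNAi replicate 2, while p120ctn was highest in mCherry RNAi replicate 2. Of all tested genes, 33.0% were highest in Piwi RNAi replicate 1 and 35.3% in Piwi RNAi replicate 2. For the integrin genes this order changed with the scaling, since after the median of ratios mys, mew, rhea and Ilk were highest in mCherry RNAi replicate 2.

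Ratios between the genes within a library do not depend on a common scaling factor, apart from the added 1 FPKM. The ratio of arm to shg was the steadiest between the groups, at 3.85 and 4.27 in mCherry RNAi and 3.95 and 4.25 in Piwi RNAi. The groups overlapped, with a log2 difference of 0.02 (exact permutation test, p = 1.0). alpha-Cat to shg was 0.321 and 0.530 in mCherry RNAi and 0.523 and 0.515 in Piwi RNAi. Only mCherry RNAi replicate 1 differed, and the other 3 libraries were level. p120ctn to shg was 0.225 and 0.317 against 0.199 and 0.204, lower in both Piwi RNAi libraries, at a log2 difference of −0.41. Leaving out a control moved it to −0.65 without replicate 1 and −0.16 without replicate 2.

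The alpha chain genes mew and scb lay higher relative to mys in Piwi RNAi. Another alpha chain gene, ItgaPS4, was lower in Piwi RNAi, at 14.5 and 12.6 against 10.3 and 8.87 FPKM. Its ratio to mys was not among those tested. mew to mys was 0.526 and 0.597 in mCherry RNAi and 0.616 and 0.730 in Piwi RNAi, and scb to mys was 0.697 and 0.621 against 0.780 and 0.802. The groups did not overlap, at log2 differences of 0.26 and 0.27. For the linkers, rhea to mys was 0.297 and 0.293 against 0.300 and 0.339, Ilk to mys overlapped between the groups, and parvin to Ilk was 0.733 and 0.784 against 0.978 and 0.815. The summed integrin genes exceeded the summed junction genes 3.51-fold and 3.70-fold in mCherry RNAi, and 3.39-fold and 2.47-fold in Piwi RNAi. That log2 difference was −0.32, and −0.09 without Piwi RNAi replicate 2. With 2 libraries per group the exact two-sided permutation test cannot go below p = 0.333. The 9 ratios gave p from 0.333 to 1.0 and, after Benjamini-Hochberg adjustment, from 0.5 to 1.0, so no ratio was shown to differ.

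**Figure D4:**
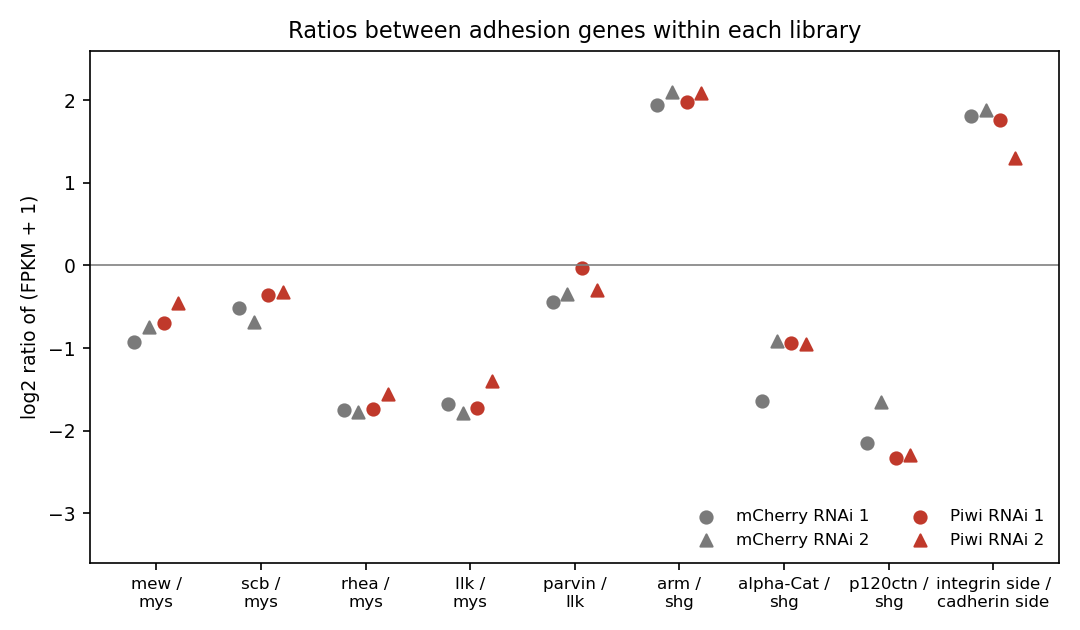
Log2 ratio of (FPKM + 1) between pairs of adhesion genes within each library, with the summed 6 integrin genes over the summed 4 junction genes at the right; grey is mCherry RNAi, red is Piwi RNAi, circles are replicate 1 and triangles replicate 2. arm to shg is nearly level in the 4 libraries, while mew to mys and scb to mys lie higher in both Piwi RNAi libraries.

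The pathways around these genes were described from 8 lists of 148 genes, of which 126 were tested and 0 passed (limma; 27 at an unadjusted p under 0.05, where 26.6% of all tested genes were). The counts of genes higher in both Piwi RNAi libraries below are on the deposited scale and were not repeated for the lists under the other scalings. Among the ligands, the laminin chains LanB1 and LanB2 were expressed in the sorted cells. LanB1 had 43.9 and 62.5 FPKM in the controls, and 78.7 and 90.2 FPKM with Piwi RNAi (log2 difference 0.67; limma, adjusted p = 0.175), and LanB2 had 18.7 and 25.3 against 33.9 and 32.9 FPKM. The collagen IV genes Cg25C and vkg stayed between listed 0 and 0.295 FPKM. SPARC, a collagen-binding matrix protein, had 8.43 and 5.07 against 11.9 and 10.02 FPKM. Of the 14 genes of this list 7 were tested, with a median of 0.48.

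Of 25 regulators of integrin adhesion all were tested, with a median of 0.21. Of these, 10 were higher and 2 lower in both Piwi RNAi libraries, against 51.5% and 13.0% of all tested genes. The 3 with the smallest p were Tes, Git and Lasp. Tes, a LIM domain protein of actin-linked adhesions, had 6.36 and 9.29 FPKM in the controls, and 19.4 and 23.7 FPKM with Piwi RNAi (log2 difference 1.37; limma, adjusted p = 0.118). Git, an adaptor of paxillin-containing adhesions, had 8.60 and 12.7 against 22.3 and 24.5 FPKM, and Lasp, an actin-binding protein, 22.7 and 25.1 against 36.3 and 37.6 FPKM. These groups were apart, unlike those of stck, the fly PINCH that binds Ilk, with 147 and 196 against 182 and 157 FPKM. Of the other integrin chains, Itgbn had 33.1 and 42.0 against 53.3 and 57.0 FPKM (log2 difference 0.55; limma, adjusted p = 0.187), and ItgaPS4 had a log2 difference of −0.46.

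Every other cadherin listed was below shg in each library, with kug the highest at 11.4 to 17.3 FPKM. The neural cadherins CadN and CadN2 ranged from listed 0 to 0.283 FPKM, and of 15 other cadherin genes 6 were tested, with a median of 0.27. The 3 with the smallest p were the Fat-like cadherin kug at 0.35, Cals at 0.43 and Cad96Ca at 0.51 on the log2 scale. Of 24 junction partners and polarity genes, 19 were higher in both Piwi RNAi libraries (51.5% of all tested genes), with a median of 0.50. The exocyst subunits sec15 and sec5, which deliver vesicles to the membrane, had log2 differences of 1.52 and 0.98 (limma, adjusted p = 0.128 and 0.139). Moe, which ties the membrane to cortical actin, had 145 and 184 FPKM against 278 and 253 FPKM.

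Genes that act with arm in Wnt signalling were tested for 22 of 26, with a median of 0.55, and 18 of the 22 were higher in both Piwi RNAi libraries, against 51.5% of all tested genes. At an unadjusted p under 0.05 there were 11, of which 10 were higher with Piwi RNAi, where 26.6% of all tested genes passed and 21.7% were higher. After adjustment 0 passed (limma). CtBP, a corepressor, had 88.1 and 105 FPKM in the controls, and 153 and 152 FPKM with Piwi RNAi (log2 difference 0.66; limma, adjusted p = 0.14). pygo, a coactivator in the arm complex, had 6.65 and 7.30 against 14.0 and 13.7 FPKM, and slmb, which marks arm for degradation, 16.2 and 18.7 against 29.4 and 36.8 FPKM. Both were apart between the groups, at log2 differences of 0.90 and 0.88. The 25 actomyosin genes had a median of 0.40, and 14 were higher in both Piwi RNAi libraries, near the 51.5% of all tested genes. The 3 with the smallest p were the small GTPases Rac2 at 0.99 (limma, adjusted p = 0.0944) and Rac1 at 1.03 and the myosin heavy chain zip at 0.47. All 8 lists are counted on the deposited scale. After scaling by the median of ratios their medians ran from −0.34 for the other integrin subunits, with only 2 of 4 genes tested, to 0.21 for the ligands.

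**Figure D5:**
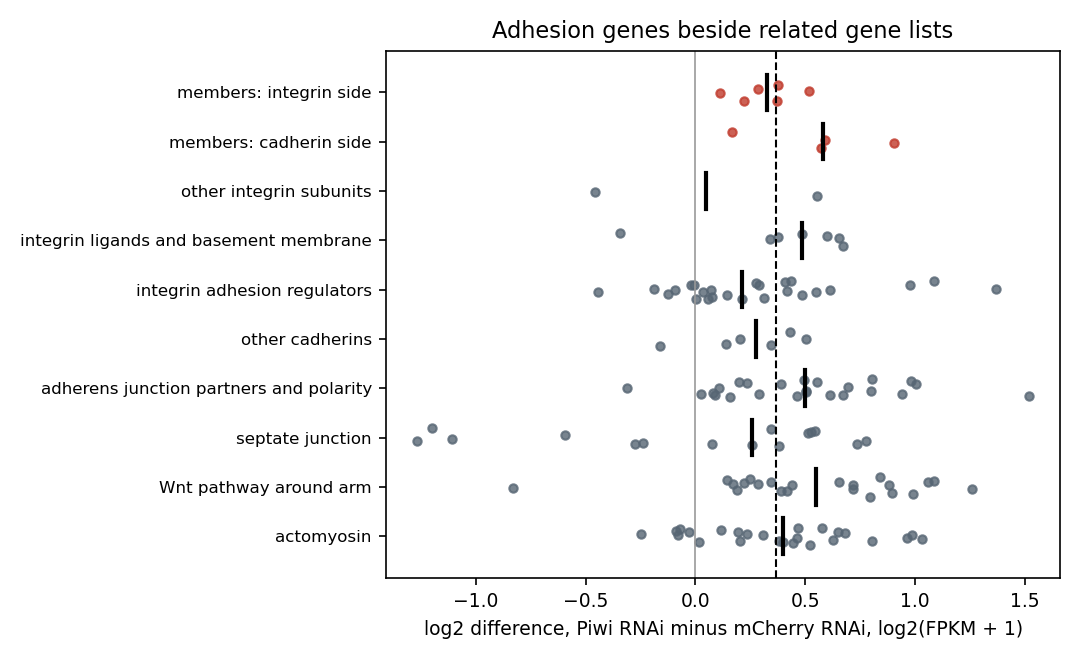
Log2 difference in log2(FPKM + 1), Piwi RNAi less control, of each tested adhesion gene (red) and of the tested genes of 8 related lists (grey), with thick lines at the medians and a dashed line at 0.37, the median of all tested genes. The medians run from 0.05 for the other integrin subunits to 0.58 for the 4 junction genes. The former rests on only 2 tested genes of opposite direction and is −0.34 after scaling by the median of ratios.

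Profiles over the 4 libraries were compared by the Euclidean distance of log2(FPKM + 1) values, each gene centred on its own mean, among 6403 genes averaging 5 FPKM or more. Nearest to mys were mbc at 0.034, Rrp1 at 0.035 and RhoGAP92B at 0.040. Within the set, rhea was nearest to mys at 0.169 and alpha-Cat farthest at 0.919. Nearest to shg were CG5508 at 0.024, l(1)G0222 at 0.034 and CG1575 at 0.039, and within the set arm at 0.131. With 4 libraries, many genes have like profiles, so these distances are descriptions and carry no test.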

How the data were processed

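Total RNA, isolated with Trizol, was sequenced after TruSeq library preparation, per the labels' protocols. The authors deposited FPKM values for each gene and library. The submitters' processing notes name TopHat and Cufflinks without versions. Genome build, annotation, strand setting and between-library scaling were not stated, so no coordinates are printed. Gene names were matched through the deposited names and a gene name table, and transcript lengths and overlaps came from the Ensembl annotation of BDGP6.

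Depth was estimated from the steps between low values in genes having only 1 annotated transcript (800 nt or longer, less 130 nt for the effective length). Of those values, 83.4% to 85.5% were whole fragment numbers to within 0.1. Fragment numbers rest on this estimate.

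Groups were compared with limma 3.58.1 in R 4.3.3 (lmFit and eBayes with a trend, two-sided) on log2(FPKM + 1), over the 8313 genes averaging 1 FPKM or more. P-values were adjusted by the Benjamini-Hochberg method over these genes at a threshold of 0.05. This scale understates differences of low genes. Residual degrees of freedom were 2 and prior ones 2.86, and the fit was tested on simulated data. There it called 3 of 50 genes changed 2-fold, 26 of 50 changed 4-fold, 36 of 50 changed 8-fold and 44 of 50 changed 16-fold. It also called 9 unchanged genes. Ratios were tested by exact permutation.

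The members and lists were chosen with earlier results of these data known. The named genes were piwi, the 10 members, the 3 genes of each list with the smallest p, and the 3 nearest profiles to mys and shg. All other genes named, such as Alr, mRpL16, if, ItgaPS5, CadN, CadN2, Cg25C, vkg, stck, Ssk and the marker genes, were named after their values were seen. Alternatives were other pseudocounts (0.1 and 5), filters, scalings, variance models, the replicate number as a block and each library left out; an adjustment for transcript length and the counts of non-overlapping groups under each scaling were added after seeing the data.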

Additional observations from a re-analysis of the deposited data

How the results depend on the processing

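In each alternative, 0 of the 10 adhesion genes passed the limma test, with the smallest adjusted p between 0.105 and 0.547. The count of all tested genes that passed, 98 in the main fit, was 167 at a mean of at least 5 FPKM, 35 after quantile normalization, 8 after median of ratios scaling, 4 without a trend, 209 with a robust fit, and 0 with no filter, after transcript length adjustment and with any library left out (0 to 0). The lone library left in a group is then assumed to vary like the others. The replicate number as a block gave 194 calls and 0 among the adhesion genes. Same-numbered libraries deviated together (r = 0.25 across genes), but with 2 pairs this does not show a shared batch.

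Log2 differences turned negative in quantile normalization for mys (−0.072) and p120ctn (−0.19). In median of ratios scaling they were −0.30 for mys, −0.036 for mew, −0.029 for scb, −0.18 for rhea, −0.12 for Ilk and −0.19 for p120ctn. After transcript length adjustment they were −0.34, −0.083, −0.08, −0.26, −0.051 and −0.24 in the same order. With a library left out, mys ranged from −0.10 to 0.32, mew from 0.09 to 0.65, scb from 0.19 to 0.57, rhea from 0.046 to 0.40, Ilk from 0.15 to 0.42, parvin from 0.34 to 0.70, shg from 0.52 to 0.62, arm from 0.46 to 0.71, alpha-Cat from 0.49 to 1.32 and p120ctn from −0.13 to 0.47. The ratio of arm to shg ranged from −0.061 to 0.091 that of alpha-Cat to shg from −0.031 to 0.69 and that of p120ctn to shg from −0.65 to −0.16. mew to mys ranged from 0.14 to 0.38, scb to mys from 0.18 to 0.35, rhea to mys from 0.023 to 0.20 and the integrin to cadherin side from −0.55 to −0.089.

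Of the adhesion genes, 3 were higher in both Piwi RNAi libraries after quantile normalization, median of ratios scaling and length adjustment, against 32.7%, 26.9% and 26.9% of all genes. In the same order 5, 4 and 4 were lowest in mCherry RNAi replicate 1, against 42.4%, 32.9% and 32.2%. The cause was not tested. With a library left out, the count of genes with Piwi RNAi above mCherry RNAi was 7 to 10, and 7 without mCherry RNAi replicate 1. Leaving out a library can only keep or raise this count, so it is no check of it. The share of all genes was not counted there. The smallest numbers of fragments, 32 to 54 a library, were those estimated for p120ctn, and depth was not varied.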

Other observations

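Genes of the smooth septate junction, the barrier between enterocytes, had another pattern. In the deposited table Ssk is listed as CG6981 and mesh as CG31004. Ssk had 107 FPKM in mCherry RNAi replicate 1 and 22.4 FPKM in mCherry RNAi replicate 2, against 30.9 and 14.0 FPKM in Piwi RNAi. mesh had 33.8 and 5.68 against 8.56 and 4.21 FPKM, and Tsp2A had 78.7 and 27.3 against 26.0 and 13.4 FPKM. All 3 were highest in mCherry RNAi replicate 1, the library with the highest enterocyte markers. In the deposited values the 10 adhesion genes were lowest in that library, as were 52.7% of the genes tested. Under quantile normalization, median of ratios scaling and length adjustment, only 5, 4 and 4 of the 10 were. The shares of all genes were then 42.4%, 32.9% and 32.2%. A link between the septate junction and adhesion patterns was not tested. The 3 septate junction genes with the smallest p were Nrg, Fas3 and cont, with log2 differences of 0.78, 0.74 and 0.51 (limma, adjusted p = 0.171, 0.226 and 0.229). Of 15 tested genes of the list 0 passed, with a median of 0.26.

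Of the 7 haemocyte markers, He, eater and NimC1 were listed at 0 in the 4 libraries and Hml in 3 of them. Others were detected, with crq at 79.0 and 82.9 against 104 and 112 FPKM and srp at 3.55 to 5.03 FPKM. Of the 6 tracheal markers, trh stayed at or below 0.437 FPKM, while bs had 6.44 and 7.91 against 12.2 and 11.8 FPKM. The scavenger receptor gene Sr-CI had 1.53 and 3.003 FPKM in the controls, and 12.6 and 18.0 FPKM with Piwi RNAi (limma, adjusted p = 0.0785), and the tracheal receptor gene btl had 6.02 and 12.1 against 21.2 and 23.4 FPKM.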
